A study of Mus musculus with 35 samples.

Results

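Enzymes and an activating protein of the prostaglandin and leukotriene pathways, encoded by Ptgs1, Ptgs2, Ptges, Ptgds, Ptgis, Alox5, Alox5ap and Lta4h, were followed in tracheal grafts of mice. A gene was taken when a probe set of the array named it and no other gene. Of the 8 genes, 6 had such probe sets, 11 in all, among 12393 genes with 20380 such probe sets on the array. Ptgs1 and Alox5 had none and were not analysed here. The series holds 35 Affymetrix arrays hybridised with RNA from tracheal tissue, 5 for each of 7 groups. The allograft groups were tracheas taken 4, 14 or 25 days after transplantation into MHC-incompatible recipients (Allo-4, Allo-14, Allo-25). The isograft groups were tracheas taken at the same days from MHC-compatible recipients (Iso-4, Iso-14, Iso-25). The native group was trachea that had not been transplanted (Native-0). The grafts were heterotopic, that is, placed outside the airway. The strains, the age of the mice and the site of the graft were not given in the labels, and neither was whether the 5 arrays of a group came from 5 animals, so the p-values measure the spread between arrays.

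Prostaglandins and leukotrienes are lipid mediators made from arachidonic acid, which phospholipases release from membranes. Cyclooxygenases turn it into prostaglandin H2, and terminal synthases turn that into prostaglandin E2, D2 or I2 (prostacyclin). On the other branch 5-lipoxygenase, held at the nuclear membrane by its activating protein, makes leukotriene A4, which a hydrolase turns into leukotriene B4, an attractant of neutrophils. In airways these products act on smooth muscle tone, vessels, mucus and the recruitment of leukocytes.

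Values are log2 intensities as deposited. Values of about 2 to 4 lie near background, and the number of arrays limits the precision. A probe set was tested when it reached log2 5 in at least 5 arrays, and a gene was represented by its brightest probe set. All 6 genes passed, as did 7 of the 11 probe sets. Ptgs2 reached log2 5 in 22 arrays, most of them grafts, Ptges in 30, and the other genes in all 35. The array medians ran from 5.07 to 5.30, and the median correlation between arrays was 0.970 within groups and 0.939 between groups. Native-0 replicate 5 and Iso-25 replicate 5 correlated least with their own groups. Leaving both out ended the Ptgds calls of Allo-14 and Allo-25 against native trachea and changed no other call on the 6 genes. Tracheal markers were present in native tissue, where the mean level over 10 secretory epithelium markers was 12.86 and that over 11 cartilage markers was 9.04. Markers of other tissues were present there too, at means of 9.28 (skeletal muscle), 9.32 (adipocyte) and 8.28 (thyroid). In the graft groups these means ran from 3.79 to 7.73, 6.42 to 9.29 and 3.07 to 7.04 in that order. The part of these tissues in the comparisons with native trachea was not tested.

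Allografts and isografts were set against each other at each day. As the strains were not given, other differences between the recipients cannot be told apart from the MHC mismatch. At day 14, allografts had 2.72-fold more Alox5ap and 1.58-fold more Lta4h signal than isografts, and 2.25-fold less Ptgis. Ptgs2 was also higher in allografts, by 2.02 on the log2 scale on its brighter probe set, where every isograft was under log2 5, and by 0.46, not called, on its dimmer one. At day 25, Alox5ap was still 1.88-fold higher, Ptgis was 2.92-fold lower and Ptges was 2.00-fold lower in allografts. No gene of the 6 was called at day 4. With limma and Benjamini-Hochberg adjustment over all probe sets tested, 0 of 6 genes were called at day 4 (0 at an unadjusted p under 0.05), 4 of 6 at day 14 and 3 of 6 at day 25. Over the 8306 genes tested, the called share was 0.554% at day 4, 21.3% at day 14 and 17.1% at day 25. In tissue RNA, fewer cells of a type and less RNA per cell cannot be told apart.

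**Figure D1:**
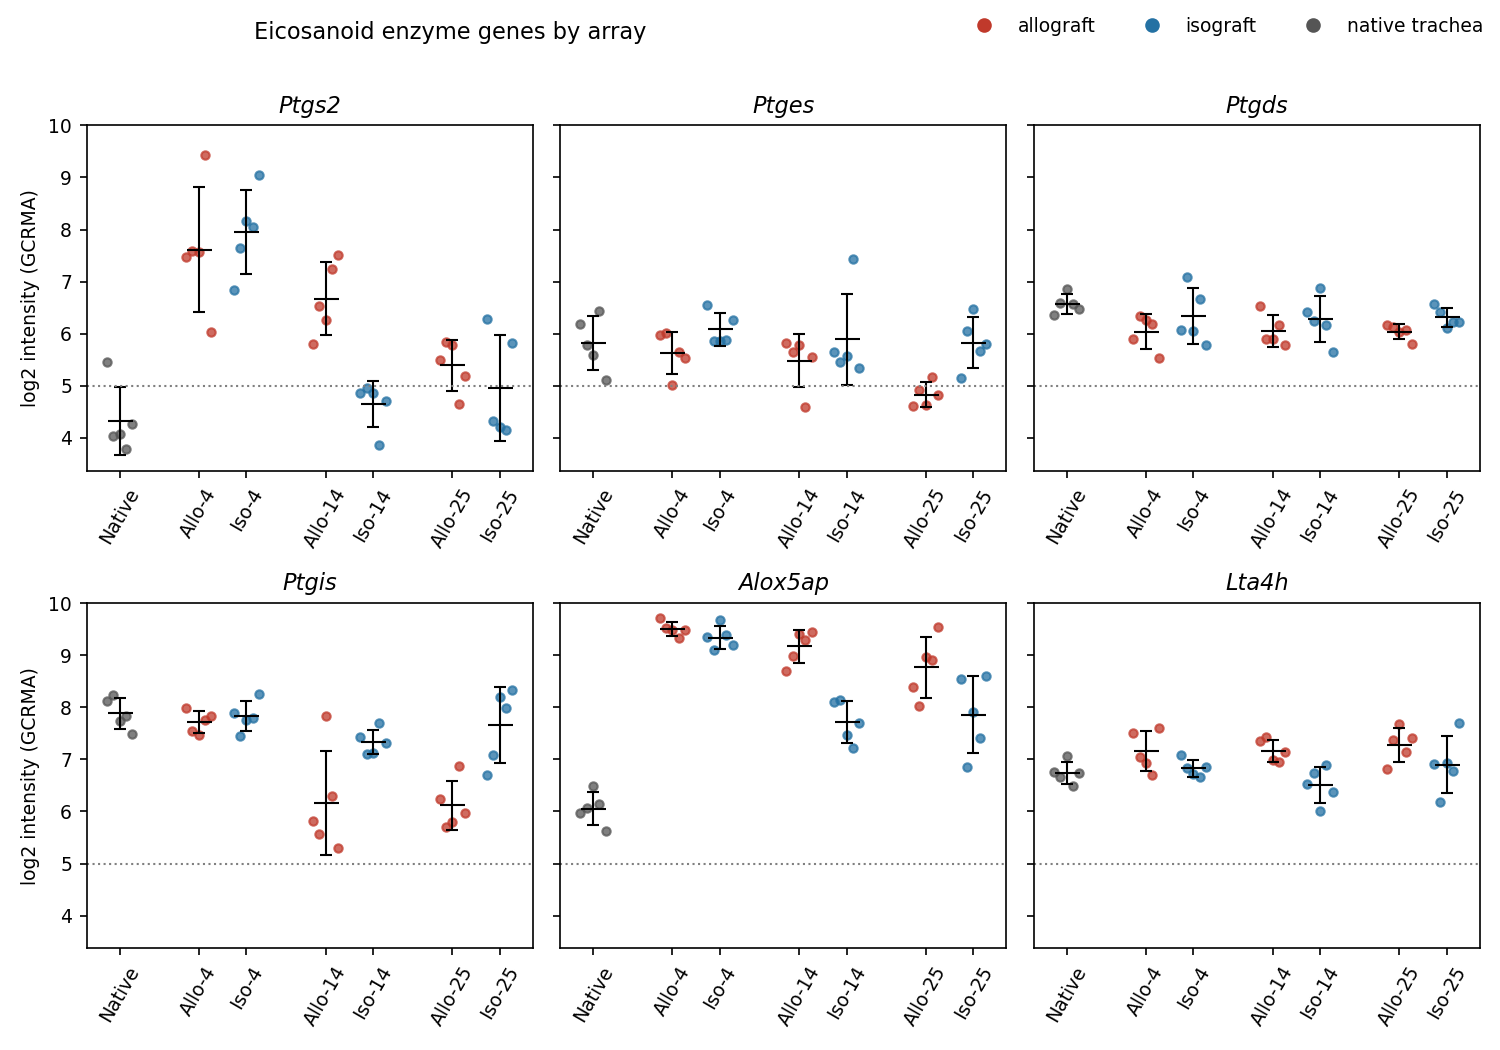
Log2 intensity of the 6 genes on each array, with allografts in red, isografts in blue and native trachea in grey, and with bars for the mean and SD of 5 arrays. The dotted line marks log2 5. The lowest Ptgs2 value was 6.03 in day 4 grafts and 5.81 in day 14 allografts, while the highest in day 14 isografts was 4.96, and the lowest Alox5ap value in grafts was 6.85 against a highest value of 6.50 in native trachea.

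Stretches of 250 bases before the annotated start of 3 of the genes are shown because these genes moved differently: Ptgs2 was high in grafts at day 4, Lta4h was higher in allografts at day 14, and Ptges was lower in allografts at day 25. They come from RefSeq on mouse build GRCm38.p6 and read 5′ to 3′ towards the start. Ptgs2 is at chr1:150099781-150100030 on the plus strand, Ptges at chr2:30903298-30903547 on the minus strand and Lta4h at chr10:93453146-93453395 on the plus strand. Capitals mark matches to the motifs searched.
Ptgs2: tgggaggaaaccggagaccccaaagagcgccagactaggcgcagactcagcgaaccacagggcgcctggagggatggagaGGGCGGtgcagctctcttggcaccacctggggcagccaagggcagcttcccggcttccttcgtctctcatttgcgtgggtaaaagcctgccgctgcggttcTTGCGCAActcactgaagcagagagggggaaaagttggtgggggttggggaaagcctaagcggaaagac
Ptges: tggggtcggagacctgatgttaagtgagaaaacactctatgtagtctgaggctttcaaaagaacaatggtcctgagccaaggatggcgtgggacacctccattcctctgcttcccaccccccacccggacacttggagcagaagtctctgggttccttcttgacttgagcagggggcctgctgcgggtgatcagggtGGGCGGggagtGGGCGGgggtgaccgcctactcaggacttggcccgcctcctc
Lta4h: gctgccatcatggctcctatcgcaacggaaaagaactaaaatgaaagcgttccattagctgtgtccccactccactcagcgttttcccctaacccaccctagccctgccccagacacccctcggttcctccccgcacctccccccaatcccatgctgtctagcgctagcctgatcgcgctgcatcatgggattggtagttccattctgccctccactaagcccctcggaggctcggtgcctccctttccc
Both strands were searched for the TATA box (TATAAA), the E-box (CACGTG), the core of the cyclic AMP response element (TGACG), the GC box (GGGCGG), a C/EBP site (TTGCGCAA) and an NF-kappaB type pattern, and no matches overlapped. The Ptgs2 stretch held a GC box 170 to 165 bases before the start and the C/EBP site 69 to 62 bases before it. Ptges held GC boxes at 53 to 48 and at 42 to 37 bases, and Lta4h held none of the 6. Of 32851 promoter stretches of the same length, 32.7% held the GC box, 0.164% the C/EBP site, 12.4% the TATA box, 6.02% the E-box, 17.8% the cyclic AMP response element core and 1.41% the NF-kappaB type pattern. The C/EBP letters replaced a looser spelling, TTGNNNNAA (31.5% of stretches), after the Ptgs2 letters had been read, so their rarity supports nothing. The NF-kappaB type pattern likewise replaced a looser one (45.8%). The share of G and C was 61.6% in Ptgs2, 59.6% in Ptges and 58.8% in Lta4h, and the median over all stretches was 52.4%. CpG dinucleotides numbered 13, 8 and 11 in the same order, against a median of 6. Ptgds, Ptgs1 and Alox5 were searched too and are not shown. Alox5 held a GC box 35 to 30 bases before the start, and Ptgds and Ptgs1 held no match. Their G and C shares were 58.4% (Ptgds), 48.0% (Ptgs1) and 52.8% (Alox5), with 2, 5 and 5 CpG dinucleotides. Alox5ap and Ptgis have no entry in the promoter table used.

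Ptgs2 encodes the inducible cyclooxygenase, which is low in most resting tissues and rises with cytokines and injury. At day 4 its log2 values were 7.47, 7.59, 7.56, 9.43 and 6.03 in allografts, against 6.83, 7.66, 8.16, 8.04 and 9.05 in isografts. These groups overlapped widely, and both the highest and the lowest of the 10 values were allografts. At day 14 the values were 5.81, 6.53, 6.26, 7.25 and 7.51 in allografts, against 4.86, 4.96, 4.85, 3.86 and 4.71 in isografts. Every allograft was above every isograft, and every isograft was under the threshold of log2 5. At day 25 they were 5.49, 5.84, 5.79, 4.65 and 5.19 in allografts and 6.29, 4.33, 4.22, 4.15 and 5.83 in isografts, against 5.45, 4.04, 4.08, 3.80 and 4.26 in native trachea. Isograft replicate 1 was above all 5 allografts, isograft replicate 5 was level with the highest of them, and the other 3 isografts were in the range of native trachea. Replicate 1 of native trachea stood well above the other 4.

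The allograft minus isograft difference of Ptgs2 was -0.33 at day 4 (SE 0.48, 95% interval -1.31 to 0.65, adjusted p = 1) and 2.02 at day 14 (interval 1.04 to 3.00, adjusted p = 0.00236). At day 25 it was 0.43 (interval -0.55 to 1.41, adjusted p = 0.65), which was not called. Against native trachea, Ptgs2 rose in Allo-4 by 3.29 (9.8-fold, adjusted p = 1.77e-06), in Iso-4 by 3.62 (12.3-fold, adjusted p = 4.14e-07) and in Allo-14 by 2.35 (5.09-fold, adjusted p = 0.000184). Most native values and all day 14 isograft values of Ptgs2 were under log2 5, and Iso-14 was not called against native trachea (adjusted p = 0.633), so the size of the differences from either group depends on the background model. The Allo-25 difference from native trachea was 1.07 (adjusted p = 0.0803). It passed without Native-0 replicate 1, at 1.35 with an adjusted p of 0.0384. In isografts Ptgs2 fell by 3.30 at day 14 against day 4 (adjusted p = 6.81e-06), while the Allo-14 minus Allo-4 difference was -0.95 (adjusted p = 0.256). The change of the allograft-isograft difference between day 14 and day 4 was 2.35 (SE 0.68, adjusted p = 0.0301). That last call ended without Allo-4 replicate 5 (1.96), Allo-14 replicate 4 (2.21), Allo-14 replicate 5 (2.14), Iso-4 replicate 5 (2.08) or Iso-14 replicate 4 (2.16).

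A dimmer probe set of Ptgs2 ran from 4.01 to 6.92 and correlated with the brighter one at r = 0.86 over the 35 arrays, or 0.66 after group means were removed. It called both day 4 rises over native trachea, at 1.53 in Allo-4 (adjusted p = 0.000198) and 1.54 in Iso-4 (adjusted p = 0.000207). At day 14 its values averaged 4.97 ± 0.36 in allografts and 4.51 ± 0.15 in isografts (SD, n = 5 each). This difference of 0.46 (95% interval -0.177 to 1.096) was not called (adjusted p = 0.361), and neither was its change between day 14 and day 4 (0.47, adjusted p = 0.654). The day 14 difference between allografts and isografts was thus called on the brighter probe set alone.

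**Figure D2:**
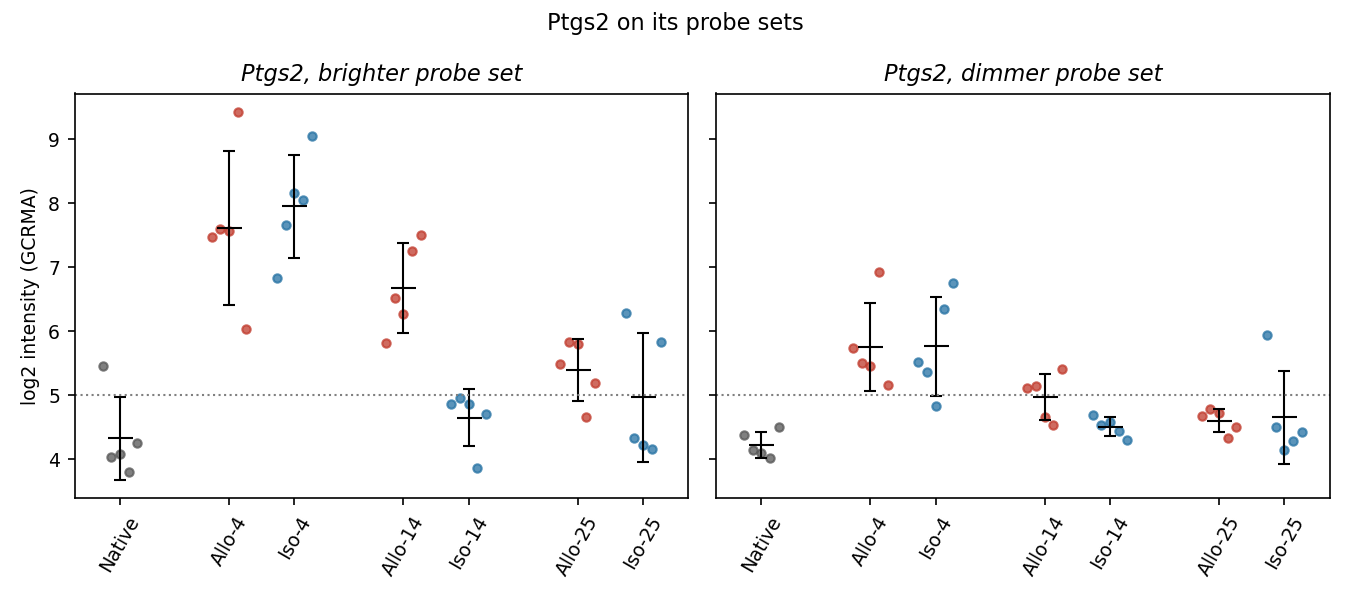
Log2 intensity of both Ptgs2 probe sets on each array, with allografts in red, isografts in blue and native trachea in grey, and with bars for the mean and SD of 5 arrays. Group means were highest in day 4 grafts on both, although single arrays of other groups lay above some day 4 grafts. Day 14 allografts stood clear of day 14 isografts on the brighter probe set and overlapped them on the dimmer one.

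Markers of cells that make prostanoids or arrive with inflammation were read beside Ptgs2. At day 14 the mean level over 15 macrophage and monocyte markers ran from 9.64 to 10.20 in allografts and from 8.83 to 8.96 in isografts, and 10 of the 15 were called higher. Of 12 neutrophil markers 6 were tested, and 1 was called higher and 1 lower at day 14, with list means of 6.06 in allografts and 6.01 in isografts. The platelet list had 2 of 8 markers tested and 1 called higher, with means of 4.41 in allografts and 3.85 in isografts. List means and correlations throughout rest on every marker with a probe set, tested or not, here 10 neutrophil and 8 platelet markers. Across the 35 arrays Ptgs2 correlated with the platelet list at r = 0.82, with the neutrophil list at 0.61 and with the macrophage and monocyte list at 0.59. After group means were removed these values were 0.29, 0.39 and 0.19. Among all marker lists, the lowest value over the 35 arrays was that of ciliated epithelium (r = -0.69), and the lowest after group means were removed were those of secretory epithelium (-0.59) and smooth muscle (-0.48). At day 14 all 10 secretory and 4 of 4 tested ciliated markers were called lower in allografts than in isografts. The arrays share groups and one normalization, and the part of these cells in the Ptgs2 result was not tested.

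Ptges encodes microsomal prostaglandin E synthase, often induced together with Ptgs2. Here it did not follow Ptgs2, with r = -0.06 between them over the 35 arrays and -0.35 after group means were removed. At day 25 its log2 values were 4.60, 4.93, 4.64, 5.17 and 4.83 in allografts and 5.16, 6.05, 6.48, 5.67 and 5.80 in isografts, against 6.19, 5.79, 5.59, 6.43 and 5.11 in native trachea. In 4 of 5 allografts Ptges lay below every isograft, and the exception, replicate 4, was just above the lowest isograft. Ptges fell by 1.00 in day 25 allografts against isografts (SE 0.31, adjusted p = 0.0257) and by 0.99 against native trachea (adjusted p = 0.0137). Between Allo-25 and Iso-25 the call ended without Allo-25 replicate 1 (-0.94), Allo-25 replicate 3 (-0.95), Iso-25 replicate 2 (-0.94) or Iso-25 replicate 3 (-0.83). At day 14 the group means were 5.48 ± 0.50 in allografts and 5.89 ± 0.87 in isografts, and at day 4 5.64 ± 0.41 in allografts and 6.08 ± 0.32 in isografts (SD, n = 5 each). Neither difference was called (adjusted p = 0.427 at day 14 and 1 at day 4). The day 14 isograft mean included replicate 4 at 7.44, the highest Ptges value of all arrays, and without it the difference was -0.03. A second probe set stayed between 2.59 and 4.06 and was not tested.

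Ptgds encodes the lipocalin-type prostaglandin D synthase, best known from brain and testis. Its group means spanned the narrowest range of the 6 genes, from 6.04 to 6.57. Its day 25 values were 6.17, 6.12, 6.03, 6.07 and 5.80 in allografts and 6.58, 6.42, 6.11, 6.23 and 6.23 in isografts, against 6.35, 6.60, 6.85, 6.57 and 6.48 in native trachea. Allografts and isografts overlapped, and all 5 allografts lay below all native arrays. Allografts differed from native trachea by -0.53 at day 4 (adjusted p = 0.0416), -0.51 at day 14 (adjusted p = 0.0461) and -0.53 at day 25 (adjusted p = 0.0483), and these calls were near the threshold. They ended when arrays were centred on their medians (-0.46, -0.38 and -0.44), and also without 1 array in 5, 8 and 9 of 10 omissions at days 4, 14 and 25. The arrays whose omission ended all 3 were Native-0 replicates 2, 3 and 4. Allo-4 replicates 1 and 5 did so at day 4, and Allo-14 replicates 2, 3, 4 and 5 and Native-0 replicate 5 at day 14. At day 25 each Allo-25 array and Native-0 replicate 5 did so, and over all omissions the differences ran from -0.63 to -0.40. Allografts minus isografts gave -0.29, -0.22 and -0.28 at days 4, 14 and 25, with none called (adjusted p = 1, 0.552 and 0.469).

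Ptgis encodes prostacyclin synthase, a cytochrome P450 enzyme of vessel walls and smooth muscle whose product relaxes vessels and hinders platelet aggregation. At day 14 its log2 values were 5.82, 5.58, 7.83, 6.29 and 5.30 in allografts, against 7.42, 7.11, 7.13, 7.69 and 7.31 in isografts. In 4 of 5 allografts Ptgis was below every isograft, while allograft replicate 3 was above them all. At day 25 the values were 6.25, 5.70, 5.79, 6.87 and 5.98 in allografts and 6.69, 7.09, 8.20, 7.99 and 8.34 in isografts, against 8.11, 8.24, 7.73, 7.84 and 7.49 in native trachea. Again 4 of 5 allografts were below every isograft, and all 5 were below every native array. At day 4 the means were 7.72 ± 0.21 in allografts and 7.83 ± 0.28 in isografts (SD, n = 5 each), with no call (difference -0.11, interval -0.78 to 0.56).

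Ptgis fell by 1.17 in allografts against isografts at day 14 (SE 0.33, adjusted p = 0.00978) and by 1.55 at day 25 (adjusted p = 0.000786). The day 14 call ended when only those 2 groups were fitted (adjusted p = 0.0657). Without Allo-14 replicate 3 the day 14 difference was -1.59 (adjusted p = 7.22e-05). Against native trachea it fell by 1.72 in Allo-14 (adjusted p = 7.48e-05) and by 1.77 in Allo-25 (adjusted p = 6.44e-05). Within allografts it fell by 1.56 at day 14 against day 4 (adjusted p = 0.0019). No isograft group was called against native trachea. The change of the allograft-isograft difference between day 14 and day 4 was -1.06 and was not called (adjusted p = 0.201), although it passed without Allo-14 replicate 3 (-1.48, adjusted p = 0.0144).

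The smooth muscle list, with 8 of 9 markers tested, had 3 markers called lower in allografts than in isografts at day 14 and 6 at day 25. Its mean level at day 25 ran from 5.73 to 6.70 in allografts and from 7.37 to 8.13 in isografts. Of 6 basal epithelium markers, 3 were called lower at day 14 and all 6 at day 25, when their mean level ran from 3.77 to 4.33 in allografts and from 6.10 to 9.16 in isografts. All 10 secretory epithelium markers were called lower at both days. Ptgis was not called against native trachea in Allo-4, Iso-4 and Iso-14. The secretory level there was 8.86, 9.09 and 11.67 in that order, against 12.86 in native trachea. The basal level was 7.92, 8.07 and 7.72, against 7.64 in native trachea. Smooth muscle markers were low in those groups. Their mean level was 6.95 in Allo-4, 6.83 in Iso-4 and 7.09 in Iso-14, against 8.80 in native trachea, with 7, 7 and 8 of 8 called lower, while Ptgis averaged 7.72, 7.83 and 7.33 in those groups, against 7.88 in native trachea. Of 10 T cell markers 7 were tested, and 5 were called higher in allografts than in isografts at day 14 and at day 25, with list means of 5.55 and 5.78 in allografts and 4.23 and 4.57 in isografts. Of 10 endothelium markers, 0 were called at day 14 and 1, lower, at day 25, and the list means lay between 6.64 and 6.90 in all 7 groups. Over the 35 arrays Ptgis correlated with the basal epithelium list at r = 0.76, the secretory list at 0.71, the smooth muscle list at 0.60, the endothelium list at 0.06 and the T cell list at -0.74. After group means were removed the values were 0.52, 0.09, 0.28, 0.06 and -0.22. Ptges correlated with the basal list at 0.63 and the T cell list at -0.53, or 0.23 and -0.15 after group means were removed, when its highest value was with the endothelium list (0.54). The part of these cells in the Ptgis and Ptges results was not tested.

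**Figure D3:**
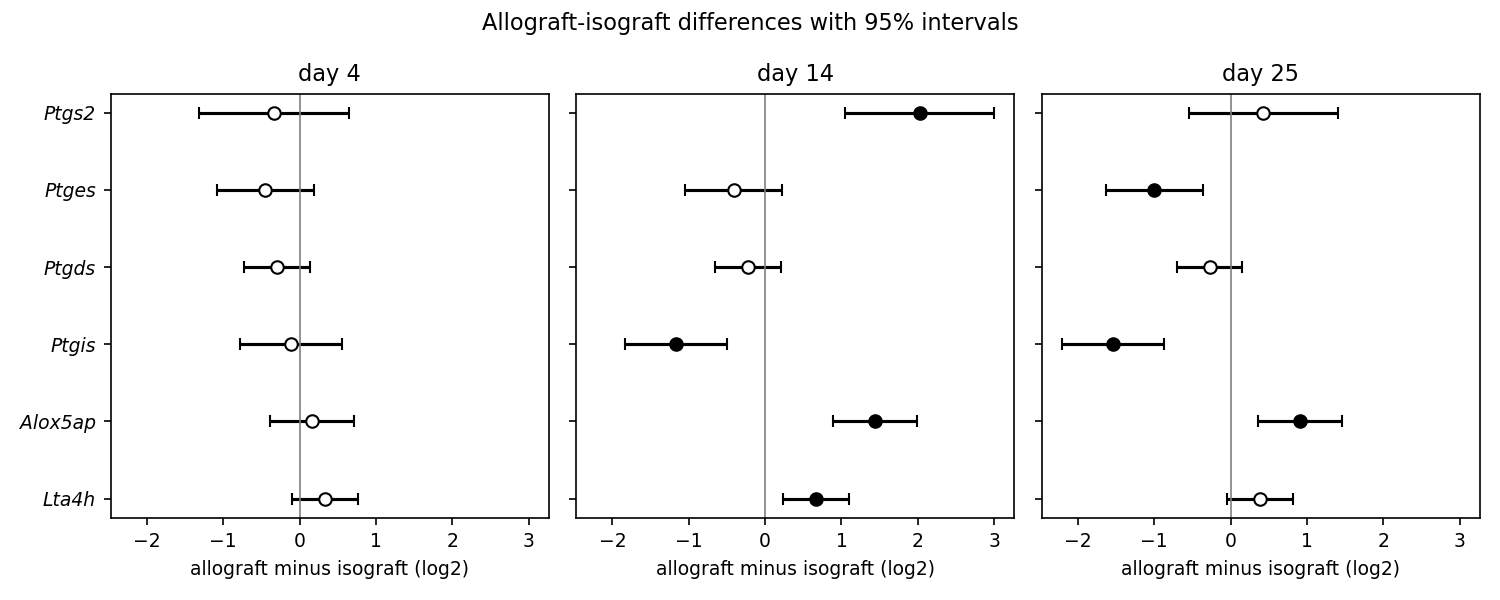
Allograft minus isograft difference in log2 intensity of the 6 genes at days 4, 14 and 25, with 95% intervals from the limma fit and filled points for calls. Differences at day 4 lay within 0.45 of zero, and at day 14 they ran from 2.02 for Ptgs2 to -1.17 for Ptgis.

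Alox5ap encodes the 5-lipoxygenase activating protein, which presents arachidonic acid to the enzyme and is abundant in myeloid cells. At day 4 its log2 values were 9.71, 9.51, 9.48, 9.33 and 9.48 in allografts and 9.35, 9.10, 9.67, 9.38 and 9.19 in isografts, against 5.96, 6.06, 6.50, 6.14 and 5.62 in native trachea. All 10 grafts were far above the highest native array, and the graft groups overlapped. At day 14 they were 8.69, 8.99, 9.41, 9.29 and 9.45 in allografts, against 8.11, 8.14, 7.47, 7.22 and 7.70 in isografts. The groups did not overlap. At day 25 they were 8.38, 8.03, 8.96, 8.92 and 9.55 in allografts, against 8.54, 6.85, 7.90, 7.41 and 8.60 in isografts, where 3 allografts were above every isograft and the other 2 lay within their range.

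Against native trachea Alox5ap was called in all 6 graft groups, by 3.44, 3.11 and 2.71 in allografts and by 3.28, 1.67 and 1.80 in isografts at days 4, 14 and 25. The largest adjusted p among them was 4.16e-05. In isografts it fell by 1.61 at day 14 against day 4 (adjusted p = 4.93e-05), while the Allo-14 minus Allo-4 difference of -0.33 was not called (adjusted p = 0.521). The allograft minus isograft difference was 0.16 at day 4 (adjusted p = 1), 1.44 at day 14 (SE 0.27, adjusted p = 0.000159) and 0.91 at day 25 (adjusted p = 0.0172). The day 25 call ended without Allo-25 replicate 5 (0.71), Iso-25 replicate 2 (0.66) or Iso-25 replicate 4 (0.80), and when only those 2 groups were fitted (adjusted p = 0.173).

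The change of this difference between day 14 and day 4 was 1.28 (SE 0.38, adjusted p = 0.0367). In 13 of 20 omissions of 1 array it no longer passed, with adjusted p up to 0.0797 and values between 1.15 and 1.40. Those arrays were Allo-4 replicates 2, 3, 4 and 5, Iso-4 replicates 1, 3 and 4, Allo-14 replicates 3, 4 and 5 and Iso-14 replicates 3, 4 and 5.

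The macrophage and monocyte list moved with Alox5ap. Its mean levels were 9.91, 10.00 and 10.00 in allografts and 9.62, 8.90 and 8.94 in isografts at days 4, 14 and 25, against 6.99 in native trachea. All 15 markers were tested, and 1, 10 and 9 of them were called higher in allografts than in isografts at those days, with 1 lower at day 25. The correlation of Alox5ap with the list over the 35 arrays was r = 0.94, and 0.82 after group means were removed. With the platelet list the correlation was 0.80, and 0.44 after group means were removed. The part of these cells in the Alox5ap result was not tested.

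**Figure D4:**
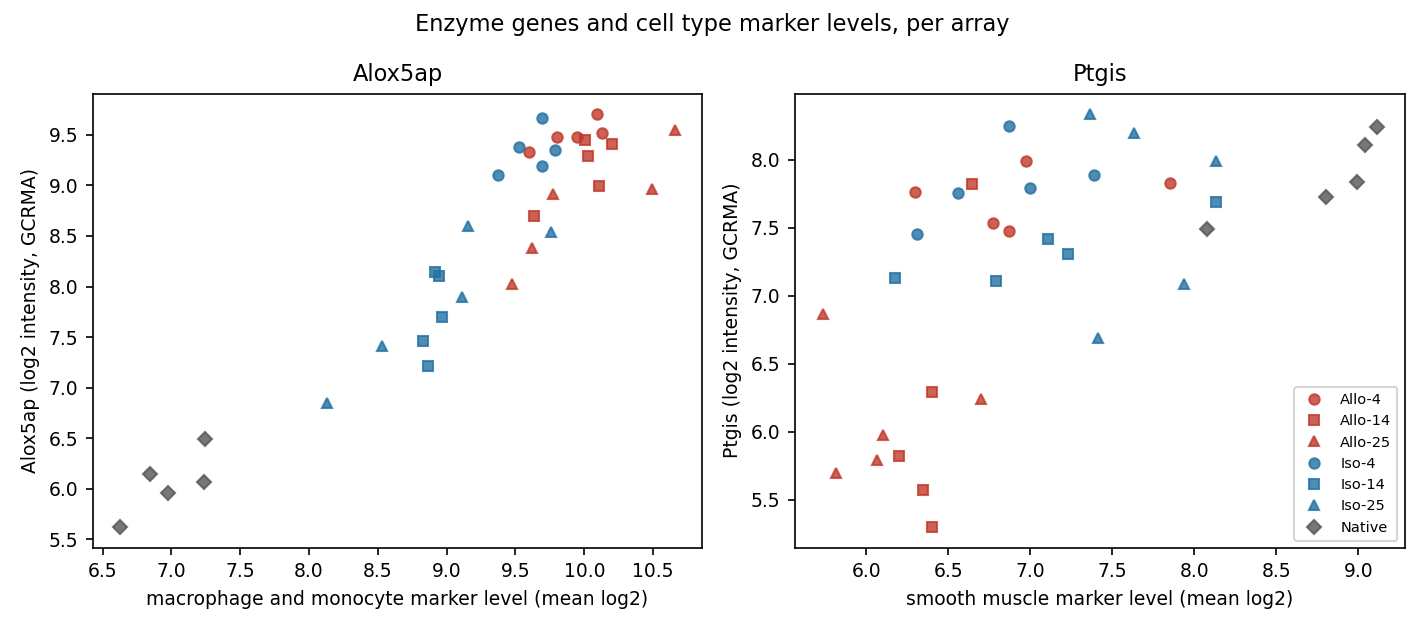
Log2 intensity of Alox5ap (left) and Ptgis (right) on each array against the mean log2 level of macrophage and monocyte markers and of smooth muscle markers on the same array, with allografts in red, isografts in blue and native trachea as grey diamonds, and with circles, squares and triangles for days 4, 14 and 25. Alox5ap was higher where the macrophage and monocyte level was higher (r = 0.94), while Ptgis was low in most day 14 and all day 25 allografts, which also had low smooth muscle levels (r = 0.60), and was not called against native trachea in day 4 grafts and day 14 isografts, where smooth muscle levels were low as well.

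Lta4h encodes leukotriene A4 hydrolase, a widely expressed enzyme that makes leukotriene B4. Its day 14 log2 values were 7.35, 7.42, 6.99, 6.95 and 7.13 in allografts and 6.53, 6.73, 6.02, 6.89 and 6.37 in isografts, against 6.77, 6.67, 7.07, 6.48 and 6.74 in native trachea. The lowest allograft was only just above the highest isograft, and both groups overlapped native trachea. At day 25 the values were 6.81, 7.36, 7.68, 7.14 and 7.42 in allografts, against 6.90, 6.19, 6.93, 6.78 and 7.71 in isografts. The highest and the lowest of these 10 arrays were both isografts. Lta4h was called at day 14 (difference 0.66, SE 0.21, adjusted p = 0.0257). The day 4 difference of 0.33 (adjusted p = 1) and the day 25 difference of 0.38 (adjusted p = 0.272) were not called. Leaving out Allo-14 replicate 1 (0.61), Allo-14 replicate 2 (0.60), Iso-14 replicate 3 (0.54) or Iso-14 replicate 5 (0.63) ended the day 14 call. Leaving out Iso-25 replicate 5 alone, one of the arrays that stand apart, brought a day 25 call (0.58, adjusted p = 0.0471).

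Against native trachea Lta4h was called in Allo-25 (0.54, adjusted p = 0.0461) and not in Allo-14 (0.43, adjusted p = 0.0982), Allo-4 (0.42, adjusted p = 0.11) or any isograft group. The Allo-25 call ended in 8 of 10 omissions, those of Allo-25 replicates 2, 3, 4 and 5 and Native-0 replicates 1, 2, 4 and 5, with the difference between 0.44 and 0.66 over all 10. The other probe sets of Lta4h stayed between 2.93 and 4.24 and between 1.57 and 2.11, and were not tested. Lta4h correlated with Alox5ap at r = 0.47 over the 35 arrays, and 0.42 after group means were removed.

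In all, graft groups differed from native trachea in 3 (Allo-4), 4 (Allo-14) and 5 (Allo-25) of the 6 genes in allografts, and in 2 (Iso-4), 1 (Iso-14) and 1 (Iso-25) in isografts. Over all genes tested the called shares were 47.2% for Allo-4, 47.9% for Allo-14 and 38.1% for Allo-25, and 46.4% for Iso-4, 28.5% for Iso-14 and 17.2% for Iso-25. These 6 comparisons share the 5 native arrays. Between days within a graft type, 2 of 6 genes were called for Iso-14 against Iso-4 (24% of all genes), both lower, and 1 of 6 for Allo-14 against Allo-4 (8.92%), lower. For Allo-25 against Allo-14, 0 of 6 passed (3.49% of all genes), with 2 at an unadjusted p under 0.05. For Iso-25 against Iso-14, 0 of 6 passed (0% of all genes), with 0 of the 6 and 548 of all genes at an unadjusted p under 0.05. The allograft-isograft difference changed between day 14 and day 4 in 2 of 6 genes, Ptgs2 and Alox5ap (7.63% of all genes). Between day 25 and day 14 it did so in 0 of 6 (1.24%), with 1 gene, Ptgs2, at an unadjusted p under 0.05 (-1.59, adjusted p = 0.444).

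Group means of Ptgs2 ranked Iso-4, Allo-4, Allo-14, Allo-25, Iso-25, Iso-14 and Native-0 from high to low, and no neighbours in that order differed past the threshold. Alox5ap ranked Allo-4, Iso-4, Allo-14, Allo-25, Iso-25, Iso-14 and Native-0, with called steps between Allo-25 and Iso-25 (0.91) and between Iso-14 and Native-0 (1.67). Ptgis ranked Native-0, Iso-4, Allo-4, Iso-25, Iso-14, Allo-14 and Allo-25, with a called step between Iso-14 and Allo-14 (1.17). Lta4h had the 3 allograft groups on top and Iso-14 lowest, Ptges had Iso-4 on top and Allo-25 lowest, and Ptgds had Native-0 on top and the allograft groups lowest. None of the neighbouring steps of these 3 genes was called.

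Other genes of arachidonic acid release, prostanoid and leukotriene synthesis, breakdown, transport and reception formed a list of 50, of which 43 had a probe set and 24 were tested. Between allografts and isografts 0 of 24 were called at day 4 by limma (2 at an unadjusted p under 0.05), 7 at day 14 and 8 at day 25. At day 14, 2 were higher and 5 lower, with a median difference of -0.0803 beside 0.0286 over all genes. At day 25, 4 were higher and 4 lower, with a median of 0.0869 beside -0.0021 over all genes. These shares of 29.2% and 33.3% of the list stand beside 21.3% and 17.1% of all genes.

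At day 14 the largest called differences of the list were in Alox15, a lipoxygenase of macrophages and airway epithelium, Pla2g5, a secreted phospholipase, Cyp4f18, which hydroxylates leukotriene B4, and Mgst2, a leukotriene C4 synthase of the membrane. Alox15 averaged 4.34 ± 0.94 in allografts and 6.80 ± 2.37 in isografts (SD, n = 5 each; difference -2.46, adjusted p = 0.0319). Pla2g5 averaged 6.13 ± 0.69 in allografts and 7.90 ± 0.39 in isografts (-1.77, adjusted p = 6e-04), and Mgst2 averaged 4.96 ± 0.29 in allografts and 6.12 ± 0.24 in isografts (-1.16, adjusted p = 4.61e-05). Cyp4f18 was higher, at 6.22 ± 0.52 in allografts and 5.02 ± 0.52 in isografts (1.20, adjusted p = 0.0231). The isograft spread of Alox15 was wide, from 4.16 to 8.95.

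At day 25 the largest were in Hpgd, the dehydrogenase that inactivates prostaglandins, Mgst2, Slco2a1, the prostaglandin transporter, and Cyp4f18. Hpgd averaged 7.55 ± 0.49 in allografts and 6.13 ± 0.55 in isografts (1.41, adjusted p = 0.0328), and all 5 allografts lay above all isografts. Further probe sets of Hpgd and Slco2a1 lay below the filter and were not tested. Slco2a1 averaged 5.26 ± 0.58 in allografts and 6.46 ± 0.35 in isografts (-1.21, adjusted p = 0.00258). Mgst2 was at 4.94 ± 0.13 in allografts and 6.24 ± 0.26 in isografts (-1.30, adjusted p = 8.09e-06), and Cyp4f18 at 6.29 ± 0.80 in allografts and 5.10 ± 1.13 in isografts (1.18, adjusted p = 0.0294). The allograft-isograft difference of Pla2g5 changed by -1.999 between day 14 and day 4 (adjusted p = 0.0149) and by 2.34 between day 25 and day 14 (adjusted p = 0.0155), and that of Mgst2 by -1.55 between day 14 and day 4 (adjusted p = 0.000405). No other tested gene of the list passed in those comparisons.

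**Figure D5:**
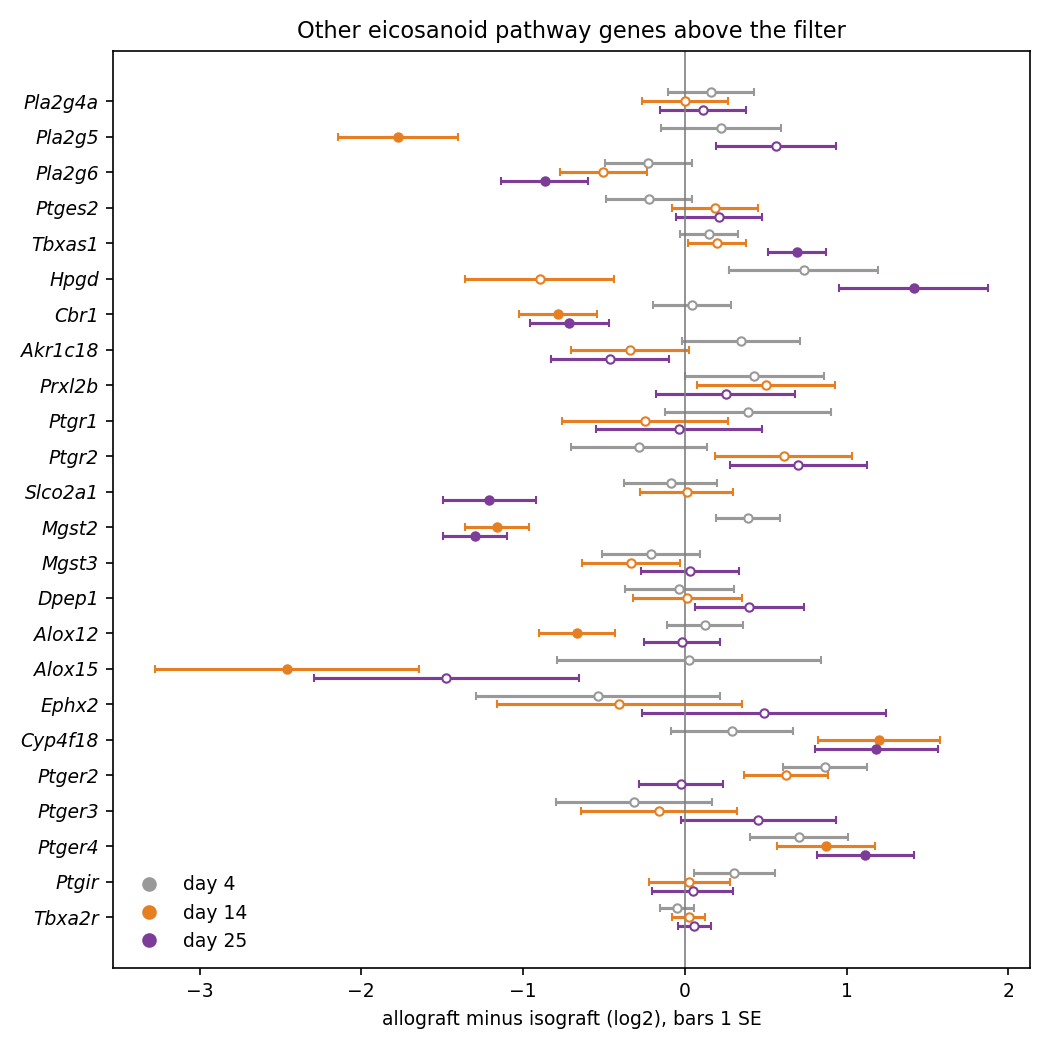
Allograft minus isograft difference in log2 intensity of the other tested genes of the pathway, with bars of 1 SE and filled points for calls. Mgst2 was lower in allografts at days 14 and 25, and Pla2g5 was lower at day 14 alone among the called differences.

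The genes most like each enzyme by Pearson r over the 35 arrays were sought among all tested genes. For Ptgs2 they were Il6 (r = 0.89), Mmp8 (0.89) and Tpm4 (0.88), which encode a cytokine, a neutrophil collagenase and a tropomyosin. Mmp8 is on the neutrophil marker list used here. For Alox5ap they were Ripk3 (0.97), Ms4a6d (0.97) and Msr1 (0.96), the last a macrophage scavenger receptor on the marker list used here. Ptgis was most like Lamb3 (0.84), a laminin chain of epithelial basement membrane, Erdr1 (0.84) and Ece1 (0.84), an endothelin converting enzyme. Ptges was most like Efna1 (0.83), Bsg (0.78) and Id1 (0.76), and Lta4h most like Dbnl (0.76), Rnf19b (0.74) and Plbd1 (0.73). For Ptgds the highest values were lower, with Cox8b (0.59), Stmn3 (0.58) and Elovl6 (0.57). After group means were removed, r was 0.65 for Ptgs2 with Il6, 0.77 for Alox5ap with Ripk3, 0.61 for Ptgis with Lamb3, 0.75 for Ptges with Efna1, 0.72 for Lta4h with Dbnl and 0.61 for Ptgds with Cox8b. These values describe arrays that share groups and a normalization.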

How the data were processed

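Tracheal RNA was isolated with TRIzol, column-cleaned and biotin-labelled as cRNA, per the labels. The deposited values are log2 intensities, 1 column per array, made with GCRMA 1.1.3, per the submitters' processing notes, with values from 0.317 to 15.53. GCRMA subtracts a modelled background and normalizes the arrays together, so folds against values near background depend on that model. No detection calls or scanner files were used, and the precision is limited by 5 arrays per group.

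Of 22690 probe sets, 64 were controls, 20380 named 1 gene, 691 several and 1555 none in the platform annotation used. Probe sets reaching log2 5 in at least 5 arrays (13678, representing 8306 genes by their brightest probe set) were fitted with group means over all 35 arrays in limma 3.58.1 under R 4.3.3 (28 residual degrees of freedom). Differences are first group minus second, in 15 comparisons. A call is a Benjamini-Hochberg adjusted p under 0.05 over all probe sets tested in a comparison. The fit was tested on simulated data.

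The text names all member genes, at most the 4 largest called differences of the pathway list per allograft-isograft comparison and the 3 genes most correlated with each member. The members and lists were chosen with earlier results of these data known. Alternatives covered the filter, array weights, the variance model, normalization, the replicate block, the groups fitted, the choice of probe set and the omission of arrays. Single-gene alternatives were computed for every allograft-isograft difference and, a limit set after seeing the values, for other differences of at least 1.5 SE. Promoter stretches are RefSeq's.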

Additional observations from a re-analysis of the deposited data

Results flagged for a closer look

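Among 42 sets of 5 arrays (6 genes in 7 groups), 4 held an array far from the other 4, or 9.52%, where chance flags about 1 in 20 sets. Native-0 replicate 1 was high for Ptgs2 at 5.449, and Iso-14 replicate 4 was low for it at 3.863. For Ptges, Iso-14 replicate 4 was high at 7.437, and Allo-14 replicate 4 was low at 4.601.

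The allograft-isograft difference changed between day 4 and day 14 for 2 genes by the interaction term in limma. For Ptgs2 the change was 2.3536, with a difference of 2.02 at day 14 and -0.33 at day 4. For Alox5ap it was 1.2792, with a difference of 1.44 at day 14 and 0.16 at day 4. Both calls ended with no filter, and in 5 (Ptgs2) and 13 (Alox5ap) of 20 omissions of 1 array. The dimmer Ptgs2 probe set was not called for this change.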

How the results depend on the processing

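The number of the 6 genes called in Allo-25 against native trachea was 5, and became 3 with no filter, 3 with a stricter filter (log2 7, 4 genes tested) and 2 with the mean of all probe sets of a gene (4 genes tested). The 2 changes of the allograft-isograft difference between day 14 and day 4 became 0 with no filter (adjusted p = 0.0517 for Ptgs2 and 0.0551 for Alox5ap). With the mean of all probe sets they became 1, as Ptgs2 lost its call (1.41, adjusted p = 0.0914) and Alox5ap kept its call. Every other count under another setting was within 1.5 times its main value. Leaving out 1 array gave 3 to 4 genes for allografts against isografts at day 14, 1 to 4 at day 25, 0 to 2 for the change between day 14 and day 4, and 2 to 3, 3 to 4 and 3 to 5 for Allo-4, Allo-14 and Allo-25 against native trachea. Other counts were the same in every omission. The day 4 difference of Ptgs2, not called, ran from -0.78455 to 0.0642 over the omissions and turned positive without Allo-4 replicate 5. Fitting only the compared groups ended the Ptgis call at day 14 (adjusted p = 0.0657) and brought a call of Ptgs2 in Allo-25 against native trachea (adjusted p = 0.0295). Lta4h in Allo-25 lost its call in that fit (adjusted p = 0.0553) and with no filter (adjusted p = 0.0534). Repeated quantile normalization ended the 3 Ptgds calls (-0.45, -0.38 and -0.42), and with it or with centring Lta4h was called in Allo-4 and Allo-14 as well (0.48 to 0.56). Centring moved the median of all genes by up to 0.166, in Iso-14 against native trachea. Over the single-gene differences recomputed, another setting left 460 values with their direction and call, weakened 21 and strengthened 5. The causes were not tested. The replicate numbers did not pair the arrays (median correlation of same-numbered deviations from -0.03 to 0.08), and a fit with the replicate number as a block changed no call on the 6 genes, with 4 called at day 14 and 3 at day 25.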

Other observations

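Some genes of the pathway list were singled out after their values were seen. Ptger4, a receptor for prostaglandin E2, averaged 8.15, 8.22 and 8.47 in allografts and 7.45, 7.34 and 7.35 in isografts at days 4, 14 and 25, against 5.89 in native trachea. It was called higher than native trachea by limma in all 6 graft groups (1.46 to 2.58), and higher in allografts than isografts at day 14 (0.87, adjusted p = 0.0396) and day 25 (1.12, adjusted p = 0.0084). A second Ptger4 probe set lay below the filter and was not tested, and its allograft minus isograft differences were 0.07 at day 14 and 0.20 at day 25. Ptger3, another receptor for prostaglandin E2, was called lower than native trachea in all 6 graft groups, with differences of -4.17 in Allo-4, -3.85 in Iso-4, -1.58 in Allo-25 and -2.03 in Iso-25. A second Ptger3 probe set, also below the filter and not tested, differed from native trachea by 0.112 to 0.336 over the 6 graft groups, in the opposite direction. Pla2g4a, the cytosolic phospholipase that releases arachidonic acid, was higher than native trachea in Allo-4 (1.13, adjusted p = 0.000872) and Iso-4 (0.97, adjusted p = 0.00382). It was also called higher in Allo-14, where its mean was 7.93 against 7.29 in native trachea. It was not called in Iso-14, also at 7.93, or in Iso-25 or Allo-25. Tbxas1, the thromboxane synthase, was higher in allografts than isografts at day 25 (0.69, adjusted p = 0.00577). These comparisons with native trachea share the 5 native arrays.

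Called genes of the list against native trachea numbered 18, 17 and 14 of 24 in allografts and 15, 12 and 8 in isografts at days 4, 14 and 25. These were 75%, 70.8% and 58.3% of the list in allografts and 62.5%, 50% and 33.3% in isografts, beside 47.2%, 47.9% and 38.1% of all genes in allografts and 46.4%, 28.5% and 17.2% in isografts. The lower calls of the list outnumbered the higher ones in each group. Over all genes they did so in 5 of the 6 groups, and in Iso-25 there were 822 higher and 610 lower calls.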
